A study of Caenorhabditis elegans with 2 samples.

Results

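The genes described here are the tRNA genes of the X chromosome of Caenorhabditis elegans, taken as all 276 genes of biotype tRNA on X in the Ensembl annotation of WBcel235, out of 612 nuclear tRNA genes. They were examined in chromatin immunoprecipitation followed by sequencing (ChIP-seq) of the forkhead transcription factor PES-1. The study holds 1 group of 2 biological replicates, so no condition could be compared with another. Both replicates were whole early embryos, aged 1 hour and obtained by bleaching, of strain RW12239, whose pes-1 gene on chromosome IV carries the CRISPR insertion st12239 and encodes PES-1 fused to TY1, EGFP and 3xFLAG. The immunoprecipitation used an antibody against GFP per the descriptions, while the antibody field names pes-1. Per the file lists the replicates share 1 control, and no immunoprecipitation from worms without the tag was analysed here. Since whole embryos were used, a strong signal in few cells and a weak one in many cannot be told apart.

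Transfer RNA genes are transcribed by RNA polymerase III. Their promoter lies inside the transcribed sequence as an A box, which encodes part of the D arm, and a B box, which encodes part of the T arm. TFIIIC binds both boxes and places TFIIIB just upstream of the start site, and transcription ends at a run of T. tRNA genes are also among the places that many unrelated factors reach in ChIP-seq, and most occur as repeated copies of the same sequence.

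The sequences below are the genes on which the results turn, from the RefSeq copy of WBcel235, 5′ to 3′ on the strand of the gene. The first 3 are the X-linked leucine genes with anticodon CAA, whose primary transcript contains an intron, shown because 1 of them had the highest signal of the 276 genes and the others had no peak. Capitals mark the A box and then the B box.
C04A11.t1: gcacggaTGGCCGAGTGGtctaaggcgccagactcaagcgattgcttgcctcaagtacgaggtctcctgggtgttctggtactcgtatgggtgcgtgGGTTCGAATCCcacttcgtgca
F42F12.t1: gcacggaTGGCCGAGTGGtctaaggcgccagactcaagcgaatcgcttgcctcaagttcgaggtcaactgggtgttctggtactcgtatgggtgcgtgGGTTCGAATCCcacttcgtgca
F02D10.t3: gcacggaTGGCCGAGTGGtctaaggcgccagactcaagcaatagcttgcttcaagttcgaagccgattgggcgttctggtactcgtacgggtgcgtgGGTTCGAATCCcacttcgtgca

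The next sequences are each carried by at least 8 identical X-linked genes, and are shown because copies with the same letters differed in whether they had a peak. Capitals again mark the A box and the B box, the latter in its short form where the full form is absent.
Pro TGG: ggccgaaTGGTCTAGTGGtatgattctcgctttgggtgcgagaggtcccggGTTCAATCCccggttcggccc
Arg ACG: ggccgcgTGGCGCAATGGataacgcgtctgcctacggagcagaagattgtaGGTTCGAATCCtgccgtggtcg
Gln TTG: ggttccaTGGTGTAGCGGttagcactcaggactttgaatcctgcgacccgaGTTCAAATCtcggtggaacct
Leu AAG: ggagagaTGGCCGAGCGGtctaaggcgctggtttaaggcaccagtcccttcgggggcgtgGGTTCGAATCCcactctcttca
His GTG: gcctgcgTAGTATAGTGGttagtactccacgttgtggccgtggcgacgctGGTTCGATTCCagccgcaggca

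A gene was counted as having a peak where the summit of a peak lay within 200 bp of it in the authors' conservative list, which holds peaks that recur between the replicates at an irreproducible discovery rate (IDR) of at most 0.01. Of the 276 X-linked genes, 123 had a peak (44.6%, 95% Wilson interval 38.8 to 50.5). The background was 46.1% of all nuclear tRNA genes and 47.3% of the 336 autosomal tRNA genes, where 159 had a peak. X minus autosomes was -2.76 percentage points (95% Newcombe interval -10.6 to 5.16), so no difference between X and autosomes was detectable. Among genes of other biotypes, taken over their whole length, 3.06% of all nuclear genes and 3.85% of X-linked genes had a summit within the same distance. That background is not matched for gene length, and it counts host genes reached only by a summit at a tRNA gene inside them. The Wilson and Newcombe intervals treat genes as independent and cover counting error only, and identical copies and shared summits make genes depend on each other.

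The call was similar in the other lists. The authors' optimal list gave a peak to 129 X-linked genes (48.2% of all nuclear tRNA genes were called in it), the list of replicate 1 to 129 (45.9% called) and that of replicate 2 to 119 (43.3% called). In total 105 genes were called in all 4 lists and 149 in at least 1. Of the 123 genes in the conservative list, 119 were also in the optimal list, 111 in the list of replicate 1 and 113 in that of replicate 2. The 123 genes were reached by 115 summits, of which 15 lay within 200 bp of 2 genes at once, so a peak there cannot be given to 1 of the neighbours.

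Signal, the value that the authors' peak caller gave each peak, without a stated unit, had a median of 393 over the 123 X-linked genes with a peak (range 21.8 to 1359). The median over the 159 autosomal genes with a peak was 316. The highest value on X belonged to C04A11.t1, the leucine CAA gene at chrX:13665555-13665673, with 1359 in the conservative list, 643 in replicate 1 and 719 in replicate 2. Next came the alanine genes F15G9.t1 and F15G9.t2, which lie side by side in an intron of him-4, the gene of the extracellular matrix protein hemicentin, and share 1 summit of 1223 (569 in replicate 1 and 635 in replicate 2). The lysine gene W03G11.t1 followed with 1119 (500 and 617). The serine gene E03E2.t1, on the opposite strand in an intron of the vesicular monoamine transporter gene cat-1, reached 1089 (503 and 571). The glycine gene F17H10.t1 in snx-17, which encodes a sorting nexin, reached 1080 (517 and 568), the alanine gene T07H6.t2 reached 1063 (518 and 530), and the arginine gene F28H6.t1 reached 991 (431 and 564). Replicate 2 was higher than replicate 1 at each of these 8 genes, and they carry 7 different anticodons.

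At the other end of the list, the arginine gene F12D9.t5 had a conservative signal of 21.8 and no summit within 200 bp in the ranked list of either replicate. The methionine gene C25F6.t3 had 47.4 and was listed in replicate 2 alone, at 47.7. The summits nearest to the proline gene C16B8.t3 (56.0) and the serine gene C53C7.t1 (89.4) were weak, while replicate 1 gave 343 and 240 at their nearest summits and replicate 2 gave 437 and 62.6. For C53C7.t1 the low value in replicate 2 reflects the choice of the nearest summit, since the highest one within 200 bp there was 407. All 4 of these genes have another tRNA gene within 1000 bp, and so the nearest summit can belong to a neighbour.

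Replicate signals were compared gene by gene. Each replicate's own full ranked list, which includes weak peaks, was used here. In those lists 75% of all nuclear tRNA genes had a summit within 200 bp in replicate 1 and 72.1% in replicate 2, and 169 X-linked genes had a summit within 200 bp in both lists while 47 had one in neither. Across the 169 genes Spearman's rho was 0.955 and Pearson's r of the log2 signals was 0.92, given as a description since the genes share libraries and the same control. The median log2 ratio of replicate 2 to replicate 1 was 0.23 (SD 0.63 over genes), and replicate 2 was the higher at 129 of the 169 genes. Over the 117 of them with a conservative peak rho was 0.953 and r was 0.94, and over the 52 without one rho was 0.3685 and r was 0.507, with replicate 2 higher at 27. No scaling between replicates is stated, so this offset cannot be read as a difference between embryos.

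**Figure D1:**
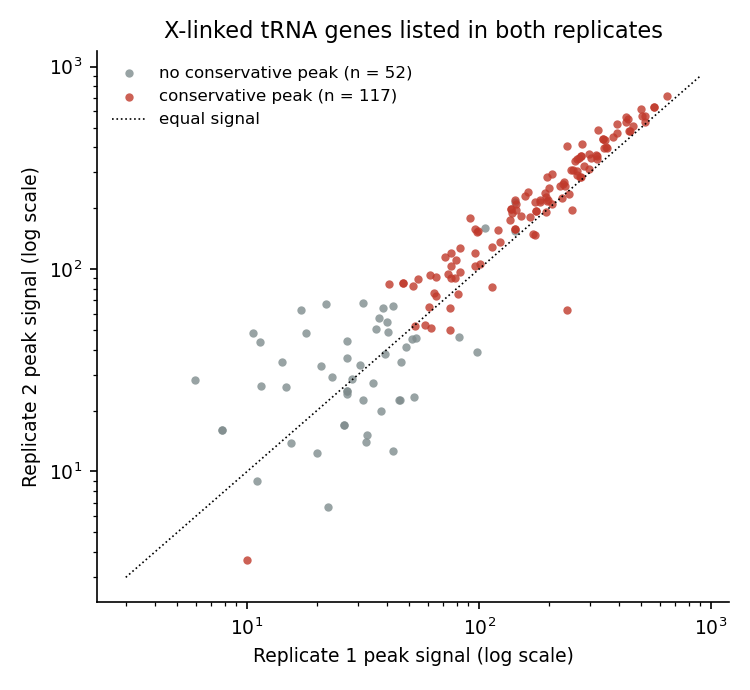
Peak signal at X-linked tRNA genes in replicate 1 (x axis) against replicate 2 (y axis), both on log scales and without a stated unit. Points are the 169 genes listed in both replicates, red for the 117 with a conservative peak and grey for the 52 without; the dotted line marks equal signal, and most red points lie above it.

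The 153 genes without a conservative peak were not all without a summit in the ranked lists. Of these, 88 had a ranked summit in replicate 1, 71 in replicate 2, 52 in both and 46 in neither. The median over those 52 genes was 31.1 in replicate 1 and 33.4 in replicate 2, against 193 and 218 over the 117 genes with a peak that were listed in both. The glutamate gene F19H6.t1 had 143 in replicate 1 and 215 in replicate 2, the phenylalanine gene K08B5.t1 had 142 and 154, and the alanine gene C11E4.t1 had 106 and 160. These 3 genes were in both replicates' own thresholded lists, yet the ranked list comparing the replicates held no summit within 200 bp of them. The lysine gene F23A7.t1 (98.3 and 39.0) was in the optimal list at 140 and missed the conservative list.

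Signals above 100 in 1 replicate with nothing listed in the other also occurred. There were 11 genes without a conservative peak whose signal exceeded 100 in at least 1 replicate, and 8 of these were listed in 1 replicate only, 6 in replicate 1 and 2 in replicate 2. The tyrosine gene K09A11.t1 had 216 in replicate 1 and no entry in replicate 2. The arginine gene C03A3.t1 likewise had 176 in replicate 1 and no entry in replicate 2. Among the 123 genes with a peak, 6 lacked an entry in at least 1 replicate. These genes were chosen after their values were seen, and reads were not analysed here, so whether the second replicate lacked signal or lacked a peak call was not tested.

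Summits lay inside the genes and near their 5′ ends. Of the 123 nearest summits, 103 were inside the gene, 13 upstream and 7 downstream, with a median position 22 bp from the 5′ end. Isolated genes, which have no other tRNA gene within 1000 bp, give the clearest reading, and there 71 of 72 summits were inside the gene with a median of 23 bp (quartiles 16 and 30.5). In the replicates' own lists the median was 21 and 24 bp. On the autosomes 135 of 159 summits were inside, with a median of 19 bp. The A box starts a median of 7 bp from the 5′ end and the short B box a median of 51 bp. The typical summit lay between these starts and closer to that of the A box. The labels give fragments longer than the distance between the boxes, and reads from inside identical copies cannot be told apart. The position of the summit therefore does not resolve which box lay nearer to the bound site. In addition, 18 X-linked genes without a peak had a conservative summit past 200 bp but within 500 bp, and 8 of those with a peak had theirs more than 100 bp away.

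Genes with the same letters did not share the same call. The 276 genes carry 106 distinct sequences, and 33 sequences occur at least 2 times on X, in 203 genes. In 29 of these 33 families some X-linked copies had a peak and others had none, in 3 families each copy had a peak, and in 1 family no copy had one. All 20 families with at least 5 X-linked copies were mixed. Reads from inside identical copies cannot be told apart, and how such reads were handled is not given in the sources used here. The sequence around the copies was mostly distinctive, since 249 of the 276 genes had flanks of 200 bp in which at least 90% of the 50-base words occur once in the genome.

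The proline TGG sequence shown above is the most frequent on X, with 13 genes, of which 5 had a peak. ZK899.t1 had 354 in replicate 1 and 400 in replicate 2. H06A10.t1 had 230 and 263, C16B8.t1 had 251 and 197, F46G11.t2 had 135 and 175, and R04D3.t3 had 53.2 and 52.0. The other 8 genes were lower than 50 in both replicates, and C48C5.t3, F23D12.t2, F23D12.t1 and ZK678.t3 were listed in neither. The conservative signal of the 5 genes with a peak spanned 102 to 753. In the ranked list that compares the replicates, the nearest summit to both C48C5.t1 and C48C5.t3, which had no conservative peak, had a signal of 105, so the groups overlapped on that scale.

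The leucine AAG sequence was carried by 9 genes, all on X, and 2 had a peak. C04E7.t1 had 264 and 305, and F14B8.t1, in an intron of pes-23, had 143 and 220. Of the other 7, F08F1.t1 had 51.2 and 45.1 and was in the optimal list at 101.5, F08F1.t2 had 35.9 and 50.7, and C48C5.t4, C05C9.t2 and C05C9.t1 were listed in neither replicate. The arginine ACG sequence was carried by 10 genes, again all on X, and 6 had a peak, from 99.2 at K01A12.t3 to 562 at T06H11.t2. T06H11.t2 lies in an intron of the potassium channel gene unc-58, and an identical neighbour in that gene, T06H11.t3, was listed in neither replicate.

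The glutamine TTG sequence had 9 X-linked copies and 4 peaks, led by R04A9.t1 with 265 and 349, while the 5 copies without a peak did not exceed 44.2 in either replicate. Glutamate CTC had 12 copies and 6 peaks. M02F4.t2, with the highest values (274 and 361), shares its summit with the glycine gene M02F4.t1, which lies nearer to it. Of the copies whose summit lay inside the gene, rte-1 had 194 and 191, and rte-3, with the same letters, was listed in neither replicate. The tryptophan CCA copies include genes first known from amber suppressor mutations. Of these, sup-7 had 253 and 309 and sup-28 had 175 and 215, whereas sup-21 had 38.1 in replicate 1 alone and sup-33 was in neither list.

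**Figure D2:**
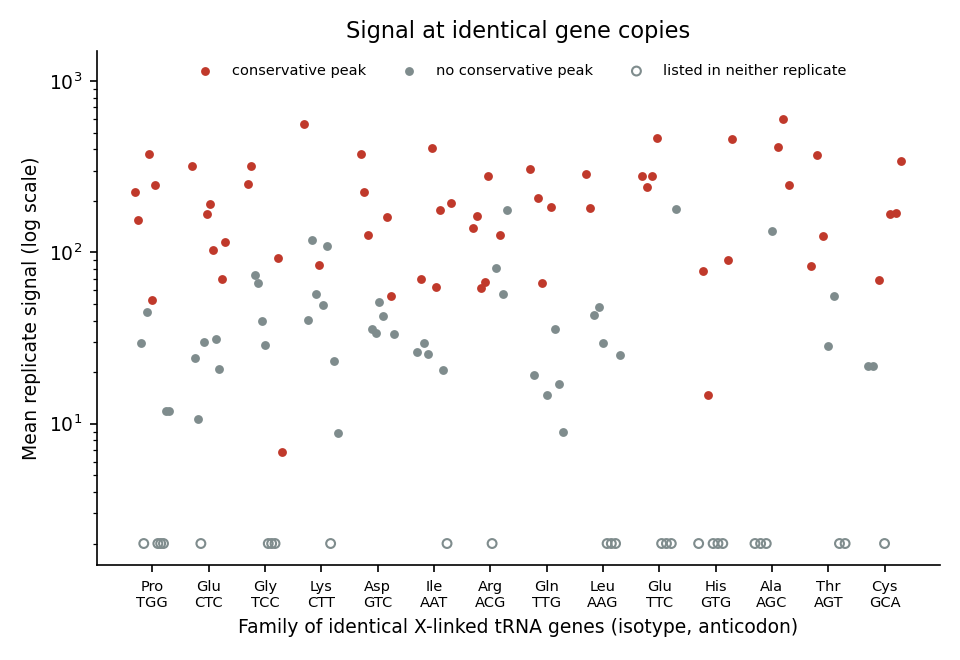
Signal at identical copies, for the 14 families with at least 7 X-linked genes, labelled by isotype and anticodon on the x axis. Each point is 1 gene at its mean over the replicates that list it (y axis, log scale, no stated unit), red with and grey without a conservative peak, and open circles at the bottom mark genes listed in neither replicate, which have no measured value; each family holds genes of both kinds.

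Base composition before the gene differed between copies with and without a peak. The 60 bp upstream held a median of 43.3% G and C at the 123 genes with a peak (quartiles 38.3 and 48.3) and 36.7% at the 153 without (quartiles 31.7 and 41.7). Among the 29 mixed families, in which the gene itself is the same, the median was higher at the copies with a peak in 27 families, lower in 1 and equal in 1. In each of the 11 families with at least 8 X-linked genes it was higher at the copies with a peak, by 1.67 percentage points for proline TGG up to 11.7 points for isoleucine AAT. On the autosomes the medians were 48.3% with and 40% without a peak. The genes themselves had a median of 58.3% G and C in both groups on X, and the 60 bp downstream had a median of 26.7% in both.

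Classes of higher upstream G and C held larger shares of genes with a peak, up to 50%. Below 30% G and C it was 4 of 25 genes (16%), from 30 to 35% it was 8 of 47 (17.02%), and from 35 to 40% it was 20 of 54 (37.0%). From 40 to 45% it was 33 of 61 (54.1%), from 45 to 50% it was 29 of 43 (67.4%), and at 50% or more it was 29 of 46 (63.0%). Median conservative signal over the genes with a peak was 206 in the first class and 515 in the last. The difference varied with distance from the gene. In the first 20 bp upstream the mean was 46.1% with and 42.4% without a peak, and over the first 30 bp the family median was higher with a peak in 19 of the 29 mixed families and lower in 8. From 21 to 40 bp upstream the mean was 41.1% with and 33.5% without a peak, from 81 to 100 bp it was 39.9% and 34.3%, and over the second 100 bp upstream the medians were 33% and 35%. From 181 to 200 bp the means were 32.5% with and 36.0% without a peak, so the order there was the other way. The farther windows can hold neighbouring tRNA genes, which were not masked and have a median of 58.3% G and C. The nearest tRNA gene was as little as 87 bp away. The lower quartile of that distance was 292 bp with and 196 bp without a peak. The part of such neighbours was not tested. The comparison of base composition was chosen after the data were seen, and genes in it are not replicates. Sequencing coverage of the control was not analysed here, so the part that base composition plays in recovering or aligning reads was not tested.

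**Figure D3:**
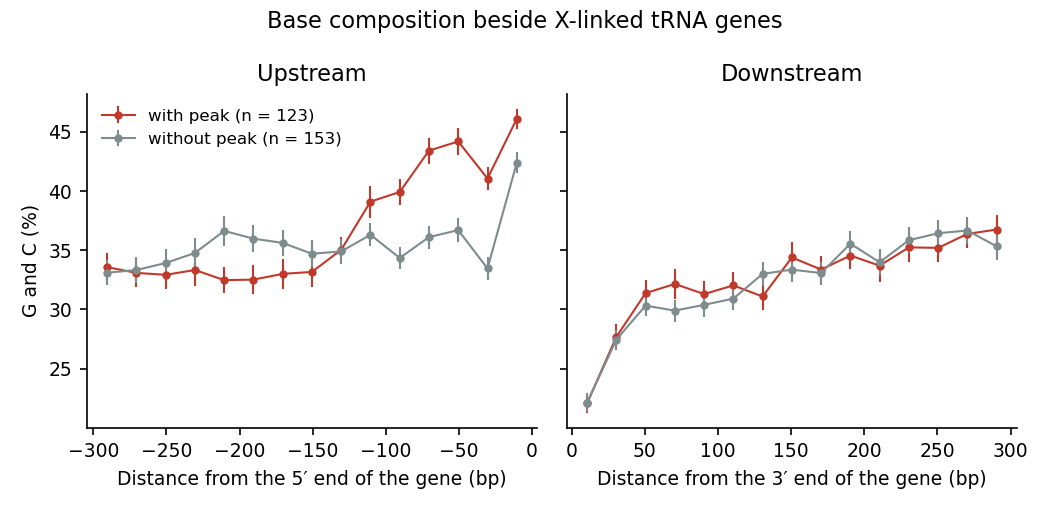
Mean share of G and C (y axis, percent) in steps of 20 bp upstream of the 5′ end (left) and downstream of the 3′ end (right) of X-linked tRNA genes, by distance in bp on the x axis. Red marks the 123 genes with a peak and grey the 153 without, bars are standard errors over genes, and red lies above grey within about 100 bp upstream, below it near 200 bp upstream (32.5% and 36.0% from 181 to 200 bp), and close to it downstream. Neighbouring tRNA genes were not masked.

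The isoleucine AAT family, chosen as the one of those 11 with the widest difference, has 10 X-linked genes, 5 with a peak. The 60 bp upstream of its highest and lowest 2 genes by mean replicate signal, with a replicate that does not list the gene counted as 0 for this choice, are shown here with G and C in capitals, so that the composition can be seen directly.
C42D8.t1: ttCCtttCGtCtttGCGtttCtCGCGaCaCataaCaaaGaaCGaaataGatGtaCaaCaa
C02D4.t1: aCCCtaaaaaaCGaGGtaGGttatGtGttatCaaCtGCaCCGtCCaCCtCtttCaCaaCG
B0344.t1: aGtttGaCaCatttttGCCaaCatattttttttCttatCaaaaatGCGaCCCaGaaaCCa
C26G2.t1: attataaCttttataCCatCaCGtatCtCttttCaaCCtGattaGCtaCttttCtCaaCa

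C42D8.t1 (chrX:5085696-5085755 upstream window) had 325 in replicate 1 and 485 in replicate 2, with 38.3% G and C. C02D4.t1 (chrX:15297411-15297470) had 158 and 230, with 45%. B0344.t1 (chrX:1590582-1590641) was listed in replicate 2 alone at 29.7, close to the other genes without a peak there, with 31.7%. C26G2.t1 (chrX:14679100-14679159) was in neither list, with 30%. In this family each of the 5 genes with a peak had a higher upstream G and C share, from 38.3 to 50%, than each of the 5 without, from 26.7 to 33.3%.

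Genes whose sequence occurs once among nuclear tRNA genes had fewer peaks than copied ones. Of the 57 unique X-linked genes 14 had a peak (24.6%, Wilson interval 15.2 to 37.1), and of the 219 copied genes 109 had one (49.8%, interval 43.2 to 56.3). Unique minus copied was -25.2 percentage points (Newcombe interval -36.6 to -11.1). Autosomal genes went the same way, with 29 of 86 unique genes (33.7%) and 130 of 250 copied genes (52.0%). Among unique genes on X, those in introns had a peak in 1 of 16 cases and those outside protein-coding genes in 13 of 41. Among genes with an annotated isotype, 7 paired acceptor stem positions and an A box match, a restriction added after the data were seen, it was -16.2 points (interval -30.6 to 0.884).

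The leucine CAA genes are all unique. Removing the intron leaves C04A11.t1 and F42F12.t1 with the same mature sequence of 84 bases, and their genes differ at 5 edits, so these lie in the intron. C04A11.t1 had 643 and 719, while F42F12.t1 was listed in replicate 2 alone, at 88.4. F02D10.t3, 1 edit away in the mature sequence and 11 in the gene, was listed in neither. The A box and B box capitals above are the same in the 3 genes. Of the 12 X-linked genes with an intron, 6 had a peak.

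Another 23 unique genes were 1 edit away from a copied sequence, and 4 of these had a peak. Those 4, and the 5 with a change in the T arm, none of which had a peak, are shown with the changed base in capitals. The T arm includes the B box, but only the change in ZK154.t1 lies within the B box match. The other T arm changes leave the match, full or short, as it is. The change in T14G8.t1, which had a peak, lies within the A box match. Positions count from 1 at the 5′ end of the mature tRNA, and the base of the copied sequence is named first.
D1009.t1: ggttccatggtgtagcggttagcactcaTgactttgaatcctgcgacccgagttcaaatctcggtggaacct
T14G8.t1: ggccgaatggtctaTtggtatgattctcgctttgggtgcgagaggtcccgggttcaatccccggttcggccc
rtw-5: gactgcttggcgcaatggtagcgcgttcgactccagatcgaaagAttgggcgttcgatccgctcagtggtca
C16H3.t1: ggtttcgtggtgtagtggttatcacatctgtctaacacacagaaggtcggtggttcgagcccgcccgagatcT
ZK154.t1: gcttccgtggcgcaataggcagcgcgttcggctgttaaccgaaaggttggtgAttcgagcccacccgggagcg
C28G1.t2: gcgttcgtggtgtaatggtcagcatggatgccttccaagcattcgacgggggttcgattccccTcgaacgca
H08J11.t2: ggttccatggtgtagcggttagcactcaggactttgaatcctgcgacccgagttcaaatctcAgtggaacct
F42G10.t1: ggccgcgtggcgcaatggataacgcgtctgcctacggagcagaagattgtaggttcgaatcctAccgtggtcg
C06G1.t4: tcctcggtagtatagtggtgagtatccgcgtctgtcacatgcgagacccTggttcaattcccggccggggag

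The glutamine gene D1009.t1 (G29T) had 90.9 in replicate 1 and 179 in replicate 2, the proline gene T14G8.t1 (G15T) had 75.5 and 120, the tryptophan gene rtw-5 (G45A) had 123 and 136, and the valine gene C16H3.t1 (A73T) had 142 and 157, from a summit it shares with C16H3.t2. In the T arm, the asparagine gene ZK154.t1 (G53A), the glutamine gene H08J11.t2 (G63A) and the arginine gene F42G10.t1 (G64A) were listed in neither replicate. The glycine gene C28G1.t2 (C64T) had 52.4 in replicate 1 alone, and the aspartate gene C06G1.t4 (G50T) had 37.9 and 19.9. By region, a peak was present at 0 of 5 genes with a change in the T arm, 0 of 5 in the acceptor stem, 1 of 5 in the D arm and its flanks, 1 of 3 in the anticodon arm, 1 of 3 in the variable region, 1 of 1 at the discriminator base and 0 of 1 with a change in length. These counts are too small to compare regions.

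Taken over all X-linked genes, the promoter boxes themselves separated few genes. The B box, spelled GGTTCGA, any 2 bases and then CC, and searched on the sense strand, was present in 177 X-linked genes, of which 77 had a peak (43.5%), and absent from 99, of which 46 had one (46.5%). With minus without was -2.96 points (interval -15.03 to 9.07). By comparison, 0.0457% of 73 bp windows of X hold that motif on 1 strand and 0.0906% on either. The shorter GTTCNANNC, which the longer motif contains apart from its ends, was present in 268 genes (118 with a peak) and in 1.36% of windows. An A box match was present in 271 genes, and the 5 genes without one, F08F1.t3, K01A12.t1, C34E11.t1, C31E10.t1 and F52E10.t2, had no peak (Wilson interval 0 to 43.4%). On the autosomes 2 of 14 genes without an A box match had a peak. An A box match was found in 1.22% of 30 bp windows of X. A run of TTTT within 50 bp after the gene was found for 273 genes and in 50.5% of 50 bp windows of X. The 3 genes without it had no peak (interval 0 to 56.1%), while 1 of 4 such genes on the autosomes had one. Acceptor stems with all 7 pairs went with a peak in 116 of 252 genes (46.0%) and those with fewer in 7 of 24 (29.2%). The 6 genes with 5 pairs or fewer had no peak.

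Over all X-linked genes, position relative to protein-coding genes made no detectable difference. Of 95 genes inside an intron 46 had a peak (48.4%). Of 180 intergenic genes, here those outside protein-coding genes, 76 had one (42.2%). Intron minus intergenic was 6.20 points (interval -6.02 to 18.3). The 1 remaining gene, C28G1.t1, overlaps an exon of C28G1.2 and had a signal of 947. Within introns, 22 of 50 genes on the strand of the host (44.0%) and 24 of 45 on the opposite strand (53.3%) had a peak, and same minus opposite strand was -9.33 points (interval -28.1 to 10.4). The intronic genes lie in 67 host genes, 51 of which hold 1 tRNA gene. Of the hosts with most, ajm-1, which encodes an apical junction protein, holds 5 glutamine genes, 3 of them with a peak, and the degenerin channel gene deg-1 holds 3, none with a peak. The distance to the nearest protein-coding 5′ end had a median of 1959 bp with a peak and 1925 bp without. Most of these tRNA genes overlapped another annotated gene once biotypes other than tRNA and piRNA were all counted. Then 160 X-linked genes overlapped an exon, 68 of them with a peak. Of 36 genes in introns 18 had one, and of 80 intergenic genes 37. Intron minus intergenic was then 3.75 points (interval -15.2 to 22.5).

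Clustered genes had fewer peaks than isolated ones under the distance used. Of 135 genes with another tRNA gene within 1000 bp 51 had a peak (37.8%, interval 30.04 to 46.2), and of 141 isolated genes 72 had one (51.1%, interval 42.9 to 59.2). Clustered minus isolated was -13.3 points (interval -24.5 to -1.56). It was 0.0473 points when summits up to 500 bp away were counted, and -26.7 points when the summit had to lie inside the gene. The interval also reached past 0 with a cluster distance of 500 bp (-9.33 points, -20.8 to 2.68) and with 1 gene per distinct sequence (-6.93 points, -23.2 to 9.78). On the autosomes 48.5% of clustered and 46.8% of isolated genes had a peak. Median signal over X-linked genes with a peak was 286 in clusters and 493 at isolated genes. Genes in pairs had a peak in 25 of 78 cases (32.1%), and genes in groups of at least 5 in 12 of 22 (54.5%).

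**Figure D4:**
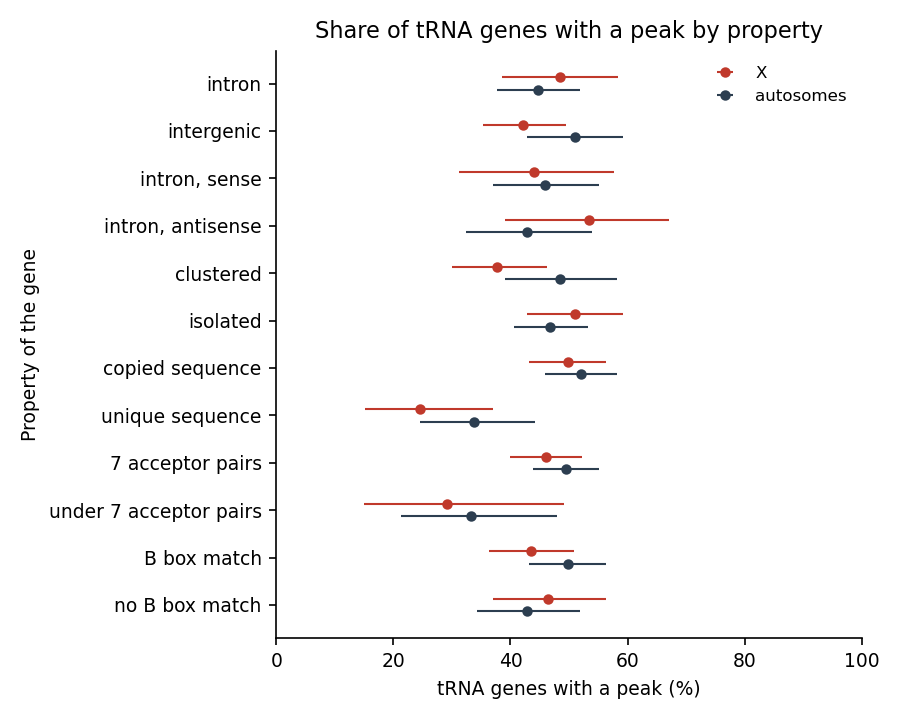
Share of tRNA genes with a peak (x axis, percent) by property of the gene (y axis), red for X and dark blue for the autosomes. Points are shares and bars are 95% Wilson intervals over genes; the intervals of unique and copied sequences are apart on X (24.6% and 49.8%), while those of intron and intergenic genes overlap.

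Both of the largest X-linked groups hold 6 genes. In the first, the methionine gene F22F1.t6 had 440 in replicate 1 and 548 in replicate 2. The aspartate gene F22F1.t5, in the same group, shares a summit of 286 with the serine gene F22F1.t4, and the isoleucine gene F22F1.t7 had 61.1 and 64.8. F22F1.t3 (38.7 and 64.0) and F22F1.t2 (19.6 in replicate 1 alone) had no peak, so the range within the group was wide. The second consists of 6 identical histidine genes. F28H6.t2 had 61.3 and 93.9 and shares its summit with F28H6.t7, and F28H6.t5 had 82.4 and 97.1. F28H6.t3, F28H6.t6 and F28H6.t4, between them, were listed in neither replicate. The flanks of those 3 consist mostly of repeated sequence, with 4.64 to 11.9% of 50-base words occurring once in the genome, and its part in the missing calls was not tested. The isolated histidine gene C06G1.t1, with the same letters, had 394 and 519.

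Shares by isotype, the amino acid that the tRNA carries, ranged from 27.8% for lysine (5 of 18, interval 12.5 to 50.9) to 71.4% for valine (10 of 14, interval 45.4 to 88.3). Which isotypes stood at the extremes changed with the list, with serine lowest in the list of replicate 1 and arginine lowest in that of replicate 2. The extremes were picked from 20 isotypes, differed by 43.7 points (interval 8.82 to 66.4), and the intervals of the isotypes otherwise overlapped widely. Arginine, with most genes, had a peak at 10 of 27, glutamate at 10 of 23, and proline and glycine at 9 of 20 each. On the autosomes lysine had 15 of 28 (53.6%) and valine 8 of 17 (47.1%), so their order was the other way there. Among valine genes the AAC anticodon, carried by 10 of the 14, accounted for 8 of the 10 peaks. On the autosomes AAC had a peak at 5 of 9 genes. Glycine GCC had a peak at 4 of 4 X-linked genes, from 205 at R04E5.t6 to 1080 at F17H10.t1, and glycine TCC at 5 of 16, a pair picked after their values were seen (Wilson intervals 51.0 to 100% and 14.2 to 55.6%). On the autosomes the order was the other way, with GCC at 3 of 12 (25%) and TCC at 12 of 20 (60%). The 3 X-linked genes without an annotated isotype had no peak.

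**Figure D5:**
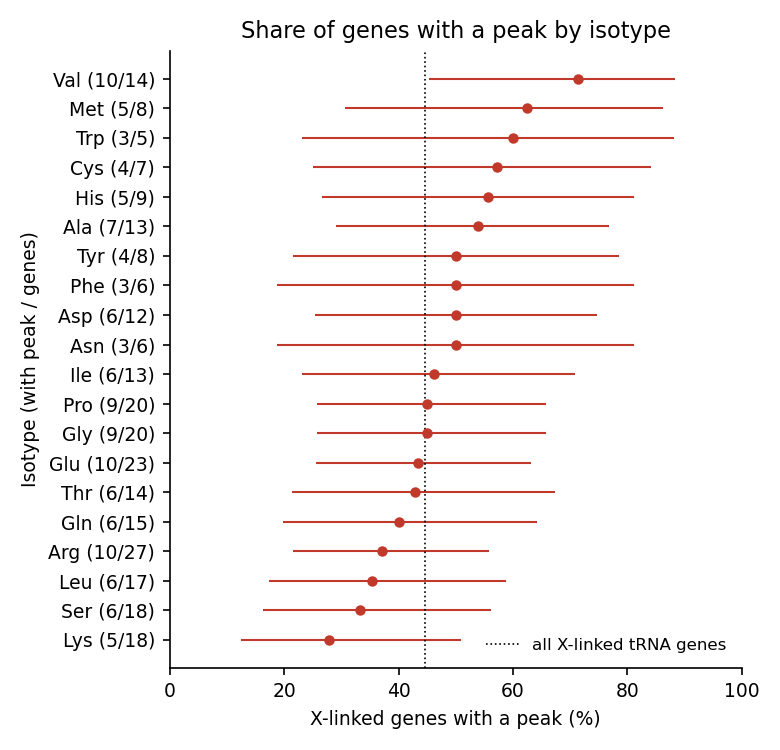
Share of X-linked tRNA genes with a peak (x axis, percent) for each isotype (y axis, with the count of genes with a peak over all genes). Bars are 95% Wilson intervals over genes and the dotted line is the share over all X-linked tRNA genes, 44.6%, which crosses the interval of each isotype but valine's, which starts at 45.4%.

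Arginine genes with anticodon TCG stood at 0 of 7 on X and 3 of 3 on the autosomes. The autosomal genes are F14B4.t1 (167 in replicate 1 and 245 in replicate 2), F35H8.t1 (306 and 427) and F56F3.t1 (406 and 446). F17A2.t1 on X has the same sequence as these 3 and had 171 in replicate 1 and no entry in replicate 2. A second TCG sequence occurs in 3 genes on X, and is shown for F49E7.t2 with the bases that differ from F17A2.t1 in capitals, which are C27T, G59T and T60C.
F49E7.t2: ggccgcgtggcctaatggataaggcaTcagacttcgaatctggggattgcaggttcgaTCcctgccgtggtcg

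F49E7.t2 had 40.5 in replicate 1 and 48.7 in replicate 2, F49E7.t3 had 27.02 and 24.8, and F38E9.t2 had 81.6 and 46.1. At their nearest summits the remaining TCG genes of X did not exceed 27.02 in either replicate, and F49E7.t1 had the same values as F49E7.t3. Farther summits within 200 bp were higher in replicate 2, at 42.0 for F49E7.t3 and 40.1 for C36C9.t2. With 7 genes the Wilson interval of the X-linked share reaches 35.4%, and this anticodon was picked out after its values were seen.

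Along the chromosome, the share with a peak in sixths of X from left to right was 13 of 24, 18 of 27, 23 of 60, 18 of 47, 29 of 68 and 22 of 50 genes. The second sixth (66.7%, interval 47.8 to 81.4) and the third (38.3%, interval 27.1 to 51.0) had intervals that overlapped.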

How the data were processed

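The members and lists were chosen with earlier results of these data known. Peak lists on ce11 were used as deposited, per the file lists. The deposited signal is the peak caller's value and has no stated unit. The deposited score is the IDR rescaled to whole numbers, at most 1000. Its lowest value in the conservative list was 830, and the lowest deposited -log10 global IDR there was 2.00, so the threshold was 0.01. The summit is the deposited offset from the peak start. Which aligner and peak caller were used, and how reads mapping to several places were treated, is not given in the sources used here. Since read depths were not analysed here, intervals cover counts of genes only.

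Genes came from Ensembl release 115, and isotypes and sequence from RefSeq. A gene took its nearest summit within 200 bp. Introns were those of protein-coding genes, and clusters were chained within 1000 bp. Shares have 95% Wilson intervals and differences 95% Newcombe intervals. No significance test was made, since 1 group of 2 replicates offers none. Named genes were the 8 highest and 4 lowest with a peak, the 4 highest without one, the 2 largest clusters, and the extremes of the 2 largest mixed families. Other named genes were chosen after their values were seen. Assignment was tested on simulated summits, at genes far from other tRNA genes only. Newcombe intervals were tested on simulated independent counts. Shared summits and identical copies were not part of these checks. Python 3.11.15, pandas 2.3.3, numpy 2.4.6, scipy 1.17.1 and matplotlib 3.10.9 were used. Alternatives were other lists, distances, copy rules and each replicate's own list.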

Additional observations from a re-analysis of the deposited data

How the results depend on the processing

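With each replicate left out in turn, the other's own list was used, and the share of X-linked genes with a peak was 43.1 to 46.7%, X minus autosomes -0.336 to 1.501 points, intron minus intergenic 4.47 to 6.81, sense minus antisense -11.3 to -3.11, clustered minus isolated -22.0 to -20.4, unique minus copied -28.0 to -21.2, B box minus none -2.72 to -2.07, terminator minus none 43.6 to 47.3, highest minus lowest isotype 36.5 to 41.8 (valine over arginine in the list of replicate 2, valine over serine in that of replicate 1), summit position 21 to 24 bp, and the upstream G and C difference 8.33 to 10 points. The share with a peak was 37.7% at an IDR of at most 0.001, 37.3% with the summit inside the gene, 51.1% within 500 bp, 24.6% for unique sequences and 52.8% with 1 gene per distinct sequence. Clustered minus isolated was -26.7 points with the summit inside the gene and -0.862 among unique sequences. Within 500 bp it was 0.0473 (interval -11.6 to 11.7), so no difference was detectable there. Among unique sequences intron minus intergenic was -25.5 points (interval -41.6 to -0.26), with the sign opposite to that over all X-linked genes. In the same subset B box minus none was -27.5 points (interval -48.2 to -4.74) and sense minus antisense 12.5 (interval -21.5 to 47.1). The median signal of unique sequences was 292. The short B box gave -18.5 points. Unique minus copied was -61.2 with 1 gene per distinct sequence, where a family counted as having a peak if any copy did. The isotypes at the extremes were asparagine and serine in the optimal list (50 points), tryptophan and tyrosine at an IDR of at most 0.001 (35 points, interval -15.2 to 68.4), and cysteine and leucine within 500 bp (64.7 points). Neither valine nor lysine kept its place there, nor among unique sequences (proline over serine). Valine stayed highest with the summit inside the gene (over glutamine) and with 1 gene per distinct sequence (over serine). It also stayed highest over lysine within 100 bp, with any overlap of peak and gene, and with each summit given to its nearest gene. Terminator minus none was 51.6 within 500 bp and 54.4 with 1 gene per distinct sequence.

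For the upstream G and C difference (6.67 points over 60 bp), all alternatives were added after the data were seen. It was 3.33 points over 30 bp, 3.00 over 200 bp and -2 over the second 100 bp upstream, 8.33 in the optimal list, 5.00 at isolated genes, 10 at unique sequences and 8.33 in introns. The causes of these changes were not tested. No paired analysis was possible because the study has 1 group. Genes are not replicates, so none of these intervals describes variation between embryos, and identical copies limit where reads can be placed.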
